A study of Saccharomyces cerevisiae with 4 samples.

Results

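The 10 genes described here encode the enzymes of peroxisomal fatty acid beta-oxidation in budding yeast (Saccharomyces cerevisiae) and the transporter that feeds them. They were picked by name, with earlier results of these data known, as POX1, FOX2, POT1, FAA2, ECI1, DCI1, SPS19, TES1, PXA1 and PXA2. All 10 were found among the 6720 gene rows of the expression table. Cells labelled wild type (WT), with no further strain detail, were grown at 30 °C in synthetic complete medium. The calorie-restricted condition (CR) had 0.05% glucose and the non-restricted condition (NR) had 2% glucose. Each condition had 2 libraries, lettered A and B and described as biological replicates. The growth stage at harvest is not given in the sources used here. Levels are in FPKM, a read density that takes fragments per kilobase of gene and divides by the mapped fragments of the sample. Cultures were measured in bulk, so a change in the share of cells that express a gene and a change in the level per cell cannot be told apart.

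In yeast, fatty acids are broken down in the peroxisome, an organelle bounded by a single membrane. Long-chain acyl-CoA enters through the transporter Pxa1-Pxa2, and fatty acids that enter free are activated to acyl-CoA by Faa2. Pox1, Fox2 and Pot1 then carry out the spiral that shortens the chain by releasing acetyl-CoA, while Eci1, Dci1 and Sps19 act on double bonds of unsaturated chains and Tes1 splits acyl-CoA into acid and coenzyme A. Genes of this pathway are known to be repressed by glucose and induced by oleate, through Oaf1 and Pip2, which bind the oleate response element, and through Adr1.

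That element is read here as CGG and CCG separated by 15 to 18 bases of any kind. Within the 500 bases before the start codon it was present in 9 of 10 genes, all but PXA1, whereas 8.82% of 6019 protein-coding genes had it there. Within 300 bases 9 genes had a match, against 4.63% of 6020 genes, and POX1 and FOX2 each had a pair of matches within 500 bases. The matches are shown as a description. Selection by name did not use them, but the element is known from genes of this pathway, so the count is no independent support. Each line runs 5′ to 3′ on the coding strand with the flanking 20 bases, from the RefSeq genome of build R64, and capitals mark the CGG and CCG ends.
POX1 (chrVII:107826-107925, + strand): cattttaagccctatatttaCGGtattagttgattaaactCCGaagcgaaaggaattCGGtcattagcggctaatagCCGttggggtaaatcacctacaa
FOX2 (chrXI:457285-457378, - strand): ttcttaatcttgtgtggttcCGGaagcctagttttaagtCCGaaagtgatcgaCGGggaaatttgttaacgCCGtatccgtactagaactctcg
POT1 (chrIX:41590-41652, - strand): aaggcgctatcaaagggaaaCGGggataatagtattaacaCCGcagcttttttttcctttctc
FAA2 (chrV:184335-184397, + strand): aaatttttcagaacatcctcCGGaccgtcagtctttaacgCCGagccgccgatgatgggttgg
ECI1 (chrXII:707171-707233, - strand): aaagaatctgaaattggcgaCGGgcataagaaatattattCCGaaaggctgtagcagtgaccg
DCI1 (chrXV:675266-675329, - strand): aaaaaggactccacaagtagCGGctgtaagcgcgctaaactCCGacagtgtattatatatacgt
SPS19 (chrXIV:259392-259455, + strand): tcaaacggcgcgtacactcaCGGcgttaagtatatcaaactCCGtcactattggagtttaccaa
TES1 (chrX:468369-468431, - strand): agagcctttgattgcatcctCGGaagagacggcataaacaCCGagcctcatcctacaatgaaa
PXA2 (chrXI:89015-89078, - strand): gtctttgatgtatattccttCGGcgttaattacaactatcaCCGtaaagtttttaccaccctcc

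The element nearest to its start codon was that of TES1, 130 to 108 bases before it, and the farthest was the outer element of POX1, 312 to 290 bases before. The spacer was 17 bases in FAA2, POX1, POT1, TES1 and ECI1, 18 in PXA2, SPS19 and DCI1, and 16 and 15 in the pair at FOX2. An Adr1-like hexamer, TTGGAG or TTGGGG on either strand, was present within 500 bases of 9 of 10 genes, all but PXA2, against 26.1% of all genes. At POX1 such a hexamer directly follows the inner element, visible in its line as ttgggg. A Mig1-like hexamer, CCCCGC or CCCCAC on either strand, was found at FAA2 alone of the 10 within 500 bases, against 13.5% of all genes, and at none of the 10 within 300 bases, against 7.39%. Mig1 is a repressor active in glucose-grown cells. A match is a run of letters and no evidence of binding.

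**Figure D1:**
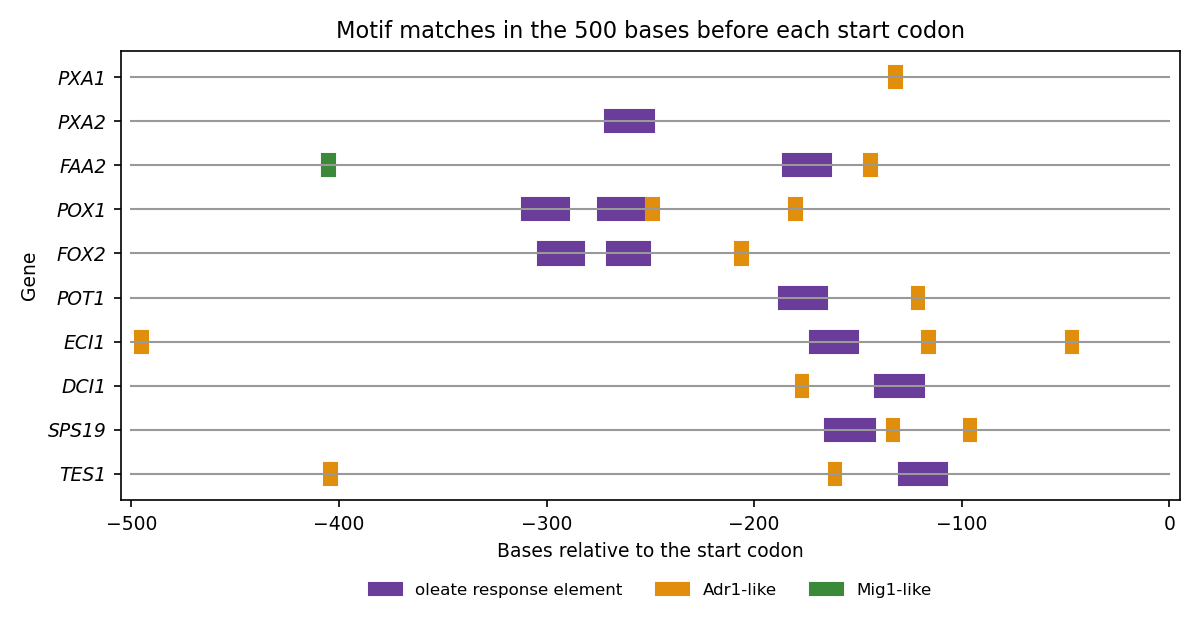
Positions of the oleate response element (purple), Adr1-like hexamers (orange) and Mig1-like hexamers (green) in the 500 bases before the start codon of each gene, in bases relative to that codon. Oleate response elements stand at 9 genes and Adr1-like hexamers at 9, and PXA1 is the gene with no oleate response element in the window.

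All 10 genes were higher in CR than in NR. Their fold ran from 2.34 for TES1 to 39.5 for POX1 as the ratio of mean FPKM, and the median log2 fold was 3.59 against 0.06 over the 6355 gene rows tested. Each gene passed limma, a linear model fitted over the whole table, on log2(FPKM + 1) with a two-sided p adjusted by Benjamini-Hochberg over all 6355 rows at 0.05. By that rule 17.7% of rows were called higher in CR and 13.2% lower. Folds on this scale understate the change of genes with low FPKM. Both CR libraries lay above both NR libraries for all 10 genes, as they did for 39.2% of rows. By log2 fold, 8 of the 10 were among the 100 largest rises of the table, with PXA2 at rank 147 and TES1 at rank 697. The sum over the 10 genes was 2079 and 3316 FPKM in CR A and CR B, against 209 and 248 in NR A and NR B, which is 11.8-fold higher in CR.

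Leaving out an NR library removed some of these calls. Without NR A, 6 of 10 genes were called higher, against 1.18% of rows, with DCI1, FAA2, PXA2 and TES1 losing their call. Without NR B, 7 were called, against 1.94% of rows, with FAA2, PXA2 and TES1 losing theirs. All 10 passed without CR A (26.0% of rows) and without CR B (25.5%). The replicate SD over rows was 0.46 on the log2 scale in CR and 0.27 in NR. With an NR library left out, the fit takes its spread from the CR pair alone. With a CR library left out, it takes it from the NR pair alone. Calls can therefore differ between these fits through the spread as well as the fold. Without NR A the log2 folds were 3.07 for DCI1, 2.79 for FAA2, 2.40 for PXA2 and 1.26 for TES1. With all 4 libraries they were 3.09, 2.93, 2.39 and 1.20. All 10 also passed after quantile normalization (16.4% of rows) and with voom on recovered fragments (19.3%). With 2 libraries against 2, an exact permutation test of a single gene cannot give a p below 0.333, so these calls use the spread shared over all rows.

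The transporter comes first in the route. Its subunit gene PXA1 (YPL147W, chromosome XVI, 273255 to 275867, + strand) was at 283 and 494 FPKM in CR A and CR B, against 16.98 and 19.98 in NR A and NR B (log2 fold 4.27, SE 0.31, limma adjusted p = 0.0028). The partner subunit gene PXA2 (YKL188C, chromosome XI, 86225 to 88786, - strand) was at 104 and 163 FPKM in CR A and CR B, against 24.2 and 23.9 in NR A and NR B (log2 fold 2.39, SE 0.27, limma adjusted p = 0.0065). The conditions did not overlap for either gene. The proteins, of 870 residues for Pxa1 and 853 for Pxa2, are 29.8% identical over aligned positions. The ratio of PXA1 to PXA2 was 2.73 and 3.03 in CR A and CR B, against 0.70 and 0.84 in NR A and NR B. PXA1 was thus the higher of the pair in both CR libraries and the lower in both NR libraries. For this change of ratio, too, the smallest p that an exact permutation test allows is 0.333.

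FAA2 (YER015W, chromosome V, 184541 to 186775, + strand), the peroxisomal acyl-CoA synthetase gene, was at 116 and 253 FPKM in CR A and CR B, against 19.5 and 24.0 in NR A and NR B (log2 fold 2.93, SE 0.40, limma adjusted p = 0.0096). Its CR libraries were the farthest apart of the 10 genes, CR B being 1.11 higher than CR A on the log2 scale, and the conditions still did not overlap. The FAA2 row shares 160 bases with that of BUD25, which held 11.5 and 0.284 FPKM in CR A and CR B, against 9.68 and 2.03 in NR A and NR B.

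Of the spiral enzymes POX1 changed most. POX1 (YGL205W, chromosome VII, 108158 to 110404, + strand), the acyl-CoA oxidase gene, whose product starts each round and makes hydrogen peroxide, was at 187 and 307 FPKM in CR A and CR B, against 5.79 and 6.73 in NR A and NR B. The means were 247 ± 84.6 FPKM in CR and 6.26 ± 0.67 in NR (SD, n = 2 each). Its log2 fold was 5.05 (SE 0.29, limma adjusted p = 0.0021), rank 11 of all rows. POX1 was the lowest of the 10 genes in NR, where its values stood on 352 fragments in NR A (95% Poisson interval 5.20 to 6.43 FPKM) and 510 in NR B (6.16 to 7.34 FPKM), and no CR value came near them.
FOX2 (YKR009C, chromosome XI, 454352 to 457054, - strand) encodes the bifunctional hydratase and dehydrogenase of the next steps. It was at 308 and 597 FPKM in CR A and CR B, against 18.05 and 19.8 in NR A and NR B (log2 fold 4.43, SE 0.35, limma adjusted p = 0.0030). POT1 (YIL160C, chromosome IX, 40191 to 41444, - strand), the gene of the thiolase that ends the round, was at 180 and 288 FPKM in CR A and CR B, against 12.6 and 13.7 in NR A and NR B (log2 fold 4.01, SE 0.28, limma adjusted p = 0.0027). For both genes each CR value was more than 10 times each NR value. The ratio of POT1 to POX1 was 0.961 and 0.939 in CR A and CR B, against 2.18 and 2.03 in NR A and NR B, so the pair stood at near-equal levels in CR and apart in NR. FOX2 stood above both in every library, by 1.65 and 1.94 times over POX1 in CR A and CR B, against 3.12 and 2.93 times in NR A and NR B.

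**Figure D2:**
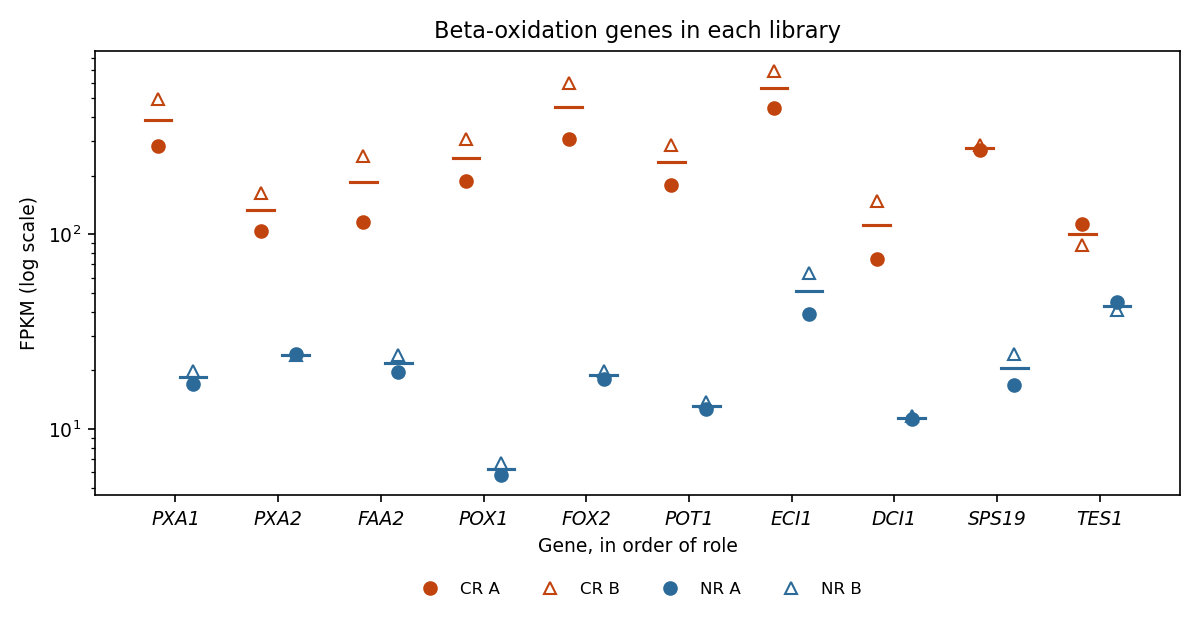
FPKM of each gene in each library on a log scale, CR left of NR for each gene; circles are library A, triangles library B and lines the group mean (n = 2). Both CR libraries lie above both NR libraries for all 10 genes, with POX1 at 5.79 and 6.73 FPKM lowest in NR and TES1 showing the smallest gap.

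Among the enzymes for unsaturated chains, ECI1 had the highest FPKM. ECI1 (YLR284C, chromosome XII, 706198 to 707040, - strand), which encodes an enoyl-CoA isomerase, was at 443 and 690 FPKM in CR A and CR B, against 38.8 and 63.0 in NR A and NR B (log2 fold 3.46, SE 0.35, limma adjusted p = 0.0053). DCI1 (YOR180C, chromosome XV, 674352 to 675167, - strand), whose product is a related protein assigned dienoyl-CoA isomerase activity, was at 74.4 and 148 FPKM in CR A and CR B, against 11.3 and 11.6 in NR A and NR B (log2 fold 3.09, SE 0.35, limma adjusted p = 0.0067). Their proteins, of 280 residues for Eci1 and 271 for Dci1, are 47.2% identical over aligned positions. The ratio of ECI1 to DCI1 was 5.96 and 4.67 in CR A and CR B, against 3.45 and 5.42 in NR A and NR B, so the conditions overlapped.
SPS19 (YNL202W, chromosome XIV, 259578 to 260456, + strand), the dienoyl-CoA reductase gene, was at 270 and 289 FPKM in CR A and CR B, against 16.8 and 24.3 in NR A and NR B (log2 fold 3.72, SE 0.24, limma adjusted p = 0.0027). Its CR libraries were close together and far above NR. The SPS19 row shares 473 bases with the row YNL203C of 612 bases, which is not in RefSeq and held 315 and 690 FPKM in CR A and CR B, against 25.9 and 31.4 in NR A and NR B. How fragments were divided between these rows is not given in the sources used here, so the level of SPS19 is uncertain.

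TES1 (YJR019C, chromosome X, 467232 to 468281, - strand), the acyl-CoA thioesterase gene, had the smallest fold. It was at 113 and 87.8 FPKM in CR A and CR B, against 44.8 and 41.0 in NR A and NR B (log2 fold 1.20, SE 0.22, limma adjusted p = 0.018). Of the 10 genes it alone was lower in CR B than in CR A. Its row shares 281 bases with YJR020W, a row not in RefSeq, at 7.43 and 50.8 FPKM in CR A and CR B, against 5.70 and 5.80 in NR A and NR B. Among the rows that overlap no other gene row, which leaves out FAA2, SPS19 and TES1, the other 7 genes were all called higher, with a median log2 fold of 4.01, where 19.9% of rows were.

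**Figure D3:**
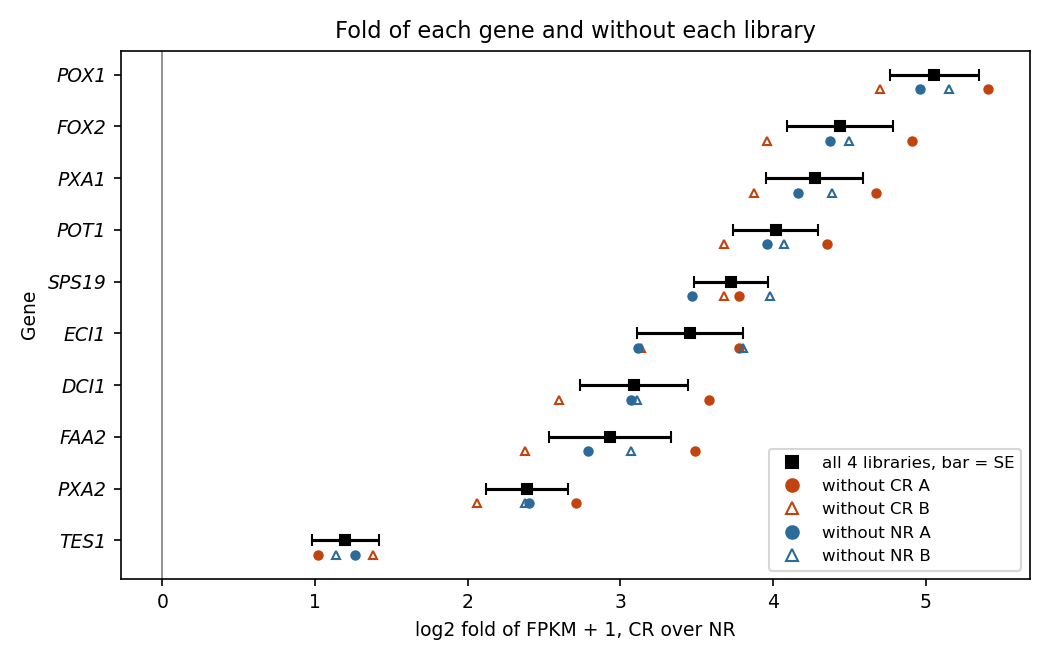
log2 fold of FPKM + 1, CR over NR, per gene with its SE (squares, all 4 libraries), and below each the fold without CR A, CR B, NR A or NR B. The folds run from 1.20 for TES1 to 5.05 for POX1, and every fold with a library left out stays above 0.

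The order of mean FPKM differed between conditions. In CR it ran ECI1, FOX2, PXA1, SPS19, POX1, POT1, FAA2, PXA2, DCI1 and TES1, and every neighbouring pair overlapped across the 2 libraries. In NR it ran ECI1, TES1, PXA2, FAA2, SPS19, FOX2, PXA1, POT1, DCI1 and POX1. There TES1 was separated from PXA2, PXA1 from POT1, POT1 from DCI1 and DCI1 from POX1, and the other neighbours overlapped. By mean, ECI1 headed both orders, while TES1 stood last in CR and next to ECI1 in NR. Single libraries differed from this. In CR A TES1 (113 FPKM) stood above PXA2 (104) and DCI1 (74.4), and in NR A TES1 (44.8) stood above ECI1 (38.8). ECI1, FOX2 and PXA1 kept their order within each CR library. The highest mean was 5.64 times the lowest in CR and 8.13 times in NR.

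The genes also differed in the same direction between the CR replicates. In CR B 9 of the 10 stood above CR A, as did 38.1% of all tested rows, and the median difference was 0.69 on the log2 scale against -0.14 over all rows. In NR B 8 of 10 stood above NR A, against 39.5% of rows, with a median difference of 0.16 against -0.07. Over NR, the median log2 fold of the 10 genes was 3.41 with CR A alone and 3.77 with CR B alone. CR B was also the library in which rows without a gene ID made up 87.2% of summed FPKM. They made up 27.4% in CR A, 34% in NR A and 29.9% in NR B. These are shares of FPKM and not of fragments. Of every 44.8 fragments in the scaling total of CR B, recovered as described below, 34.8 lay on gene rows. On the same count it was 37.6 of 40.3 in CR A, 28.5 of 29.8 in NR A and 35.4 of 37.1 in NR B. The part of rows without a gene ID in the replicate difference was not tested.

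**Figure D4:**
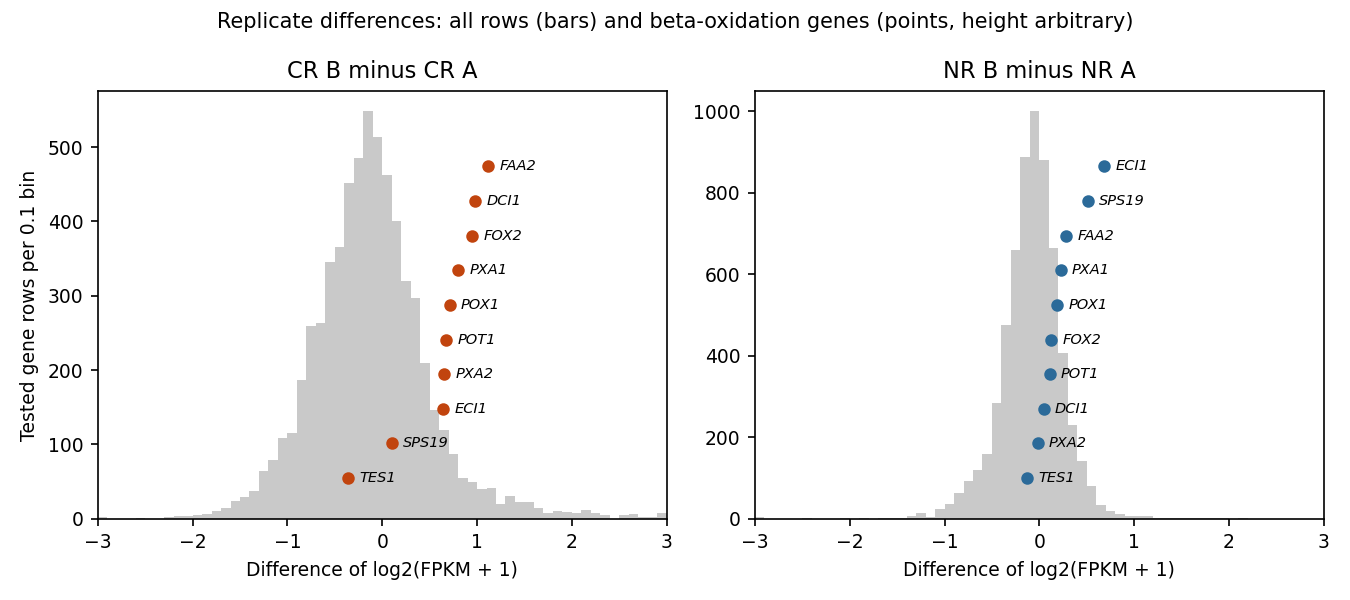
Difference of log2(FPKM + 1) between replicates, CR B minus CR A on the left and NR B minus NR A on the right, as counts of tested rows per bin of 0.1 (bars, rows beyond the axis counted in the end bins) and for the 10 genes (points, placed at arbitrary heights). In CR 9 of 10 genes lie above 0, around a median of 0.69, while the median of all rows is -0.14.

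Depth was recovered from the values. In long rows with unique sequence, FPKM times the row length less 204 bases fell on whole multiples of 1 step per library, which corresponds to scaling totals of 40300000 and 44800000 fragments in CR A and CR B, against 29800000 and 37100000 in NR A and NR B. Of the 74 to 109 values per library up to 400 fragments, 98.6% to 100% were within 0.1 of a whole number, where 20% would be with no step. The step and the 204 bases were chosen for closeness to whole numbers on largely the same values. The share is therefore a description of the fit and no independent test. The 10 genes then had 1833 to 66772 fragments per CR library and 205 to 2088 per NR library. For all 10 genes every stretch of 32 bases was unique in the genome, and the row position equalled the R64 gene.

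Of 6 genes that face a member across a shared upstream region, 5 did not pass and 1 was called higher. Over all rows 17.7% were called higher and 13.2% lower, so this count is no result about the neighbours. SPS18, whose start codon lies 300 bases from that of SPS19 with the oleate response element between, was at 18.5 and 18.6 FPKM in CR A and CR B, against 16.9 and 18.1 in NR A and NR B (log2 fold 0.08, limma adjusted p = 0.77, turning to -0.04 with libraries scaled to a common median). The ratio of SPS19 to SPS18 was 14.6 and 15.5 in CR A and CR B, against 0.989 and 1.34 in NR A and NR B. The other neighbours that did not pass were CHC1 beside POX1, BNR1 beside POT1, NNT1 beside ECI1 and LAS17 beside DCI1, with log2 folds of -0.22 (BNR1) to 0.29 (NNT1). CHC1, BNR1 and LAS17 changed sign under at least 1 alternative. PPT2, beside PXA1, was called higher (log2 fold 0.73, limma adjusted p = 0.045) and lost its call without NR A, without NR B and under both scalings of the libraries.

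Genes that serve the pathway were read from lists by function, also chosen with earlier results of these data known. For acetyl-carnitine export, by which acetyl units made in peroxisomes can reach mitochondria, 4 of 4 genes were called higher, against 17.7% of all rows. All 4 were also called in each fit that left out a library, where 1.18% (without NR A) to 26.0% (without CR A) of rows were. The carnitine acetyltransferase gene CAT2 was at 260 and 470 FPKM in CR A and CR B, against 19.2 and 22.7 in NR A and NR B. The log2 folds were 4.90 for YAT2, 4.59 for the carnitine carrier gene CRC1, 4.004 for CAT2 and 2.97 for YAT1. Of 10 partner enzymes in or around the peroxisome, 5 rose, against 17.7% of all rows, with a list median of 1.14. They were CTA1, the catalase gene whose product removes hydrogen peroxide (log2 fold 5.23), IDP3, the gene of the peroxisomal isocitrate dehydrogenase that supplies NADPH for Sps19 (3.58), the citrate synthase gene CIT2 (2.57), the peroxisomal nudix hydrolase gene PCD1 (2.02) and the malate synthase gene MLS1 (1.51, named after its values were seen). IDP3 was at 141 and 309 FPKM in CR A and CR B, against 14.98 and 18.3 in NR A and NR B. The other partner genes did not pass, with log2 folds from -0.44 (ANT1) to 0.78 (LPX1). ANT1 was at 35.0 and 23.1 FPKM in CR A and CR B, against 41.7 and 36.2 in NR A and NR B. Without NR A, CTA1 alone of the 5 kept its call, where 1.18% of rows were called higher. Without NR B the calls of PCD1 and MLS1 were lost, where 1.94% of rows were.

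Of 10 peroxisomal import and membrane genes 7 were called higher, against 17.7% of all rows, with a median of 1.14. PEX7, the receptor gene for the targeting signal that Pot1 carries, was at 75.3 and 71.8 FPKM in CR A and CR B, against 15.1 and 14.5 in NR A and NR B (log2 fold 2.24, limma adjusted p = 0.0033). Its co-receptor gene PEX18 had a log2 fold of 1.72, PEX11, for peroxisome division, 1.76, and PEX3, for membrane protein insertion, 1.22. The receptor gene PEX5 (1.07), PEX17 (1.31) and PEX13 (0.72) also passed, named after their values were seen. PEX14 (0.398), PEX21 (0.234) and PEX19 (-0.525) did not pass. All 7 lost their call without NR A, where 1.18% of rows were called higher, and PEX7 alone kept it without NR B, where 1.94% were. PEX13 lost its call under both scalings too.

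For acyl-CoA synthetases and binding outside the 10 genes, 1 of 6 rose, a share near the 17.7% of all rows and so no result about the list. It was FAA4 (log2 fold 0.999, limma adjusted p = 0.020), whose product activates fatty acids taken up from the medium. Of 6 lipolysis genes, for the turnover of stored lipid, 2 rose, AYR1 (log2 fold 1.63) and the triacylglycerol lipase gene TGL4 (1.19), again against 17.7% of all rows, and with 6 genes this is a small excess. Of 11 genes for fatty acid synthesis and elongation 3 fell, the elongation genes IFA38 (log2 fold -2.24), TSC13 (-0.79) and PHS1 (-0.72), with a list median of -0.79, where 13.2% of all rows were called lower. All 6 of these calls were lost without NR A, where 1.18% of rows were called higher and 0.739% lower, and without NR B, where 1.94% and 1.75% were. PHS1 also lost its call without the filter on low values and without an intensity trend. In the synthesis list 10 of 11 were called lower without CR A (26.3% of rows), 7 with libraries scaled to a common median (18.5% of rows) and 6 after quantile normalization (16.9%).

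**Figure D5:**
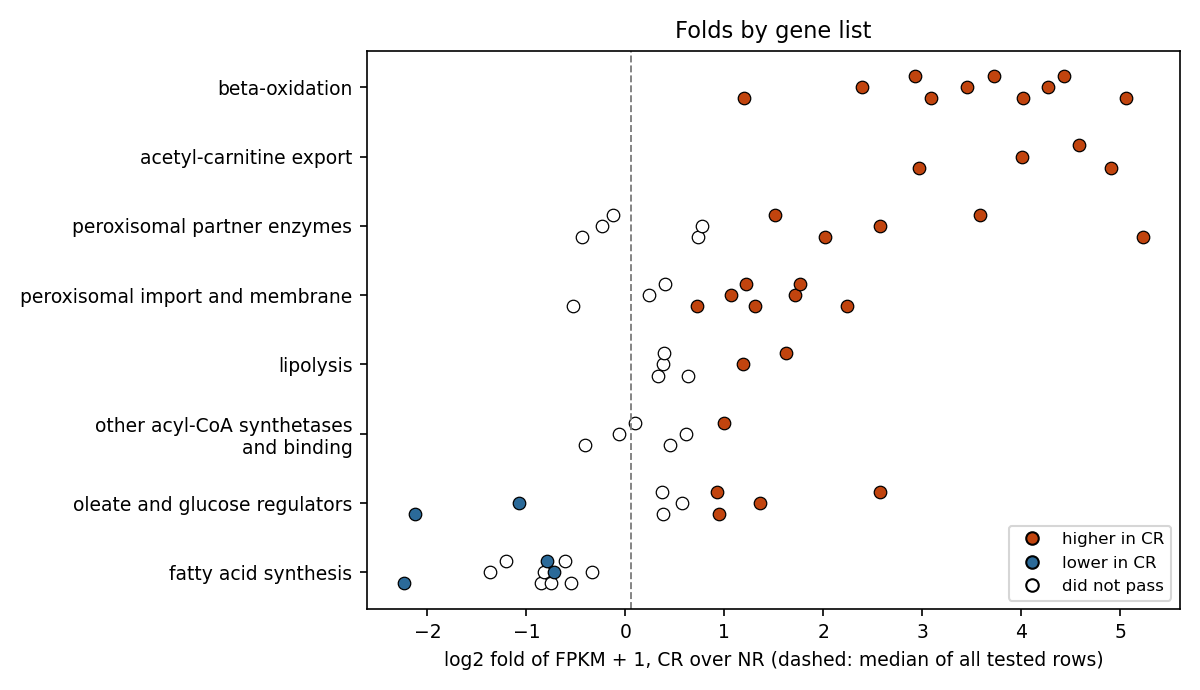
log2 fold of FPKM + 1, CR over NR, for each gene of the 8 lists (points; red called higher in CR, blue called lower, white did not pass); the dashed line is the median of all tested rows, 0.06. The beta-oxidation and acetyl-carnitine export genes are all called higher, and 3 fatty acid synthesis genes are called lower.

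Of 9 genes for regulators of the oleate and glucose responses, 4 rose and 2 fell, where 17.7% of all rows were called higher and 13.2% lower. CAT8, whose product activates genes for growth without glucose, was at 183 and 160 FPKM in CR A and CR B, against 26.8 and 29.3 in NR A and NR B (log2 fold 2.57, limma adjusted p = 0.0030). ADR1 was at 152 and 181 FPKM in CR A and CR B, against 66.9 and 61.2 in NR A and NR B (log2 fold 1.36, limma adjusted p = 0.012). PIP2, whose product pairs with Oaf1 on the oleate response element, was at 42.9 and 65.2 FPKM in CR A and CR B, against 27.0 and 26.9 in NR A and NR B (log2 fold 0.95, limma adjusted p = 0.046), and lost its call under both scalings, without the filter on low values and without an intensity trend. OAF1 had a log2 fold of 0.38 (adjusted p = 0.19). The kinase gene SNF1 rose (0.92, adjusted p = 0.026), and its partner SNF4 had 0.37 (adjusted p = 0.29), passing as higher without CR B (0.62). OAF3, whose product is a negative regulator of oleate genes, fell (-1.08, adjusted p = 0.029), as did the repressor gene MIG2 (-2.13, adjusted p = 0.0047), while MIG1 had 0.57 (adjusted p = 0.14) and passed as higher without CR A (0.83). Of the 6 calls in this list, CAT8 alone held both without NR A and without NR B.

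Over the 4 libraries, the genes outside the list whose profile was nearest to the median profile of the 10 were GAP1, FMP16, GDH2, NDE2 and PRR2. Profiles were log2(FPKM + 1) values centred on their own mean, and the mean absolute difference was 0.106 for GAP1 and 0.136 for PRR2, against a median of 1.77 over all rows. GAP1, the general amino acid permease gene, was at 246 and 411 FPKM in CR A and CR B, against 16.9 and 27.8 in NR A and NR B. Within the 10 genes ECI1 was nearest, at 0.081, and TES1 farthest, at 1.20. With 4 libraries this is a description of likeness.

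Markers of cell state were read as well. The a-cell list of 4 genes summed to 12650 and 6936 FPKM in CR A and CR B, against 60020 and 63400 in NR A and NR B. Most of that sum was MFA2, at 10290 and 5122 FPKM in CR A and CR B, against 52920 and 55930 in NR A and NR B. The rows of MFA1 and MFA2 are shorter than the length taken off when depth was recovered, so their FPKM and this sum are uncertain. The alpha-cell list of 3 summed to 33.1 to 45.2 FPKM over all 4 libraries. No marker was at 0. The a-factor genes MFA1 and MFA2 and the protease gene BAR1 were called lower in CR (log2 folds -1.86, -2.91 and -1.93), and all 3 lost that call without either NR library. Over all rows 13.2% were called lower. STE2, also in the a-cell list, did not pass (log2 fold -1.04, limma adjusted p = 0.13). With voom 2 of the 4 a-cell genes were tested and 1 was called lower, BAR1. Of the alpha-cell genes 0 of 3 passed limma, with 1 at an unadjusted p under 0.05 and 0 of the 1 tested with voom. MF(ALPHA)2 had a log2 fold of -0.04, turning positive without NR A or CR B, and STE3 had 0.70, passing after quantile normalization and without the filter. The 9 meiosis and sporulation genes summed to 86.6 and 88.5 FPKM in CR A and CR B, against 85.7 and 86.7 in NR A and NR B. These near-equal sums hold opposite moves, with log2 folds from -0.98 (SPS1) to 0.95 (IME2), both named after their values were seen. Of the 9 genes 0 passed limma, with 2 at an unadjusted p under 0.05. With voom 1 was called higher (19.3% of rows), IME2, which also passed after quantile normalization (16.4%). NDT80 and SPO11 had log2 folds of -0.30 and 0.51. The part of cell state in the change of beta-oxidation genes was not tested.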

How the data were processed

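The authors deposited 1 table of FPKM, in which every library has its own column. Each of the 4 columns was matched to its sample by name, with 0 unmatched. The submitters' processing notes name CASAVA 1.8.2, Bowtie, Cufflinks 2.0.2 and build sacCer2. Sources used here give no settings, strand use or treatment of multi-mapped reads. Positions are given as R64, since 5989 of 6025 gene IDs found in RefSeq R64 lay at that position once 1 was added to the start. Genome and annotation are from RefSeq.

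The fit used limma 3.58.1 in R 4.3.3 on log2(FPKM + 1) with a trend of variance on intensity, CR against NR, no covariate, for 6355 of 7133 rows: those with a gene ID and at least 1 FPKM on average. Each condition had n = 2. Poisson intervals cover counting error only. Members, lists and the naming rule (all 10 members, up to 4 passing genes of each list by adjusted p or else the 2 most abundant, every regulator, divergent neighbours within 1500 bases, the 5 nearest profiles) were chosen with earlier results of these data known. Proteins were translated from the genome and aligned globally with Biopython 1.88 (BLOSUM62). Targeting signals were not analysed here.

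The fit was tested on simulated data for CR against NR, with 200 of 6355 genes changed in 10 runs. It recovered 25.6% of changes of 1 on the log2 scale, 94.7% of changes of 2, and made 6.01% false calls. The simulation gave both conditions the same SD, where the data had 0.46 in CR and 0.27 in NR. It also changed fewer genes than the 1126 higher and 836 lower rows called in the data. These rates may therefore not carry over to the data. Alternatives changed the pseudocount (0.1, 5), the filter (none, 10 FPKM), the scaling (common median, quantile), the trend, the replicate block, the libraries (each left out) and the rows (no overlap, R64 position). voom on recovered fragments was chosen after seeing the data.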

Additional observations from a re-analysis of the deposited data

How the results depend on the processing

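The 10 genes kept their direction in all 147 values recomputed under alternatives and their call in 140, and the 7 lost calls came from leaving out an NR library. Leaving out a library gave 6 to 10 of them called higher, a median log2 fold of 3.29 to 3.89, and 75 to 1654 higher and 47 to 1668 lower rows in the table, where 1126 and 836 were called in all 4 libraries. Fits with a library left out take their spread from the CR pair or the NR pair alone. Without the filter on low values 464 rows were lower. The median was 4.01 among rows that overlap no other, which holds 7 of the 10. Of all calls, 57.4% were higher with FPKM as given, 44.9% with libraries scaled to a common median and 49.3% with quantile normalization. The median scaling shifted all rows by -0.13 at their median and left that of the 10 genes at 3.46. Whether the letters A and B pair the samples is not given in the sources used here. Same-letter deviations correlated at 0.083 over genes, which cannot decide it. The replicate block gave 1150 higher and 986 lower rows with all 10 genes called. With it the SE was smaller for all 10 genes, as for FAA2 at 0.27 against 0.40. The oleate response element was found at 9 genes with windows of 300 or 500 bases.

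Folds near 0 of other named genes turned. CHC1 went to -0.023 and BNR1 to 0.00024 with quantile normalization, and SPS18 to -0.044 and LAS17 to -0.12 with median scaling. With each library left out, MF(ALPHA)2 ran from -0.303 to 0.228 and LAS17 from -0.181 to 0.188. Without the filter on low values the calls of PEX13, PEX17, PIP2, OAF3, PHS1, PPT2, MFA2 and BAR1 were lost, and with the replicate block those of TSC13 and PEX13. The cause was not tested. The libraries are described as biological replicates with no detail of separate cultures, so p-values measure only the spread between these libraries.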

Other observations

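Outside the 10 genes, the oleate response element within 300 bases of the start codon was present at 261 tested genes. Of these, 72 were called higher in CR, or 27.6%, and 22 lower, or 8.43%, with a median log2 fold of 0.18. Over all 5733 tested genes with such a window, 18.1% were called higher and 13.5% lower, with a median of 0.04. With an Adr1-like hexamer in the window 253 of 870 genes were called higher, or 29.1%, and 81 lower, or 9.31%. With both, 15 of 43 were called higher, or 34.9%, and 6 lower, or 14.0%, a lower share no smaller than that of all genes. With neither, 15.6% of 4645 genes were called higher and 14.5% lower. These are descriptions, and no test was run.

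The genes with both matches that were called higher included CTA1 (log2 fold 5.23), PEX11 (1.76) and PIP2 (0.95), and the aromatic aminotransferase gene ARO9, at 372 and 483 FPKM in CR A and CR B, against 5.94 and 6.44 in NR A and NR B (5.89). FMP43, a mitochondrial pyruvate carrier gene, was at 1509 and 2186 FPKM in CR A and CR B, against 165 and 243 in NR A and NR B (3.17), and the succinyl-CoA ligase gene LSC2 had a log2 fold of 1.67. The 6 genes with both matches that were called lower were the glucose transporter gene HXT3 (log2 fold -6.16), IFA38 (-2.24), BUD27 (-2.13), MDN1 (-1.83), IZH2 (-1.67) and RSC8 (-1.47). HXT3, the largest change among the 43, was at 12.1 and 11.5 FPKM in CR A and CR B, against 905 and 925 in NR A and NR B. Of the divergent neighbours of the beta-oxidation genes, SPS18, NNT1 and BNR1 hold both matches and did not pass, with log2 folds of 0.08, 0.29 and -0.22. These genes were named after their values were seen.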
